A study of Mus musculus with 8 samples.

Results

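The regions described here are 267 stretches of autosomal chromatin that carried an ATAC-seq peak in all 6 libraries of 3 mouse genotypes and in neither library of the fourth, Smc3-deleted Flt3-ITD. They were found by merging the peaks of all 8 deposited lists wherever they overlapped by at least 1 bp, which gave 114533 regions, 109822 of them on chromosomes 1 to 19. Among these, 36183 had a peak in all 6 other libraries, and the 267 are 0.738% of that number. The regions were chosen by the presence and absence of these calls, so neither the count nor the absence of calls is a test of anything. The results below concern what the rule did not use directly. These are the width and score of the peaks in the 6 libraries, where the regions lay, and how far away the nearest remaining peak was. Score and number of calls may go together, and so may isolation and absent calls, as set out below.

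All cells were c-Kit+ bone marrow cells, a fraction rich in hematopoietic stem and progenitor cells, taken 4 weeks after PIpC, an agent that induces the Mx1-Cre recombinase. The combined genotype is given as Smc3 fl/del Flt3-ITD in one label and as Smc3 heterozygous with Flt3-ITD in the title, which leaves its second Smc3 allele unsettled, and Smc3-deleted Flt3-ITD is the name used below. In Smc3 del/+ mice 1 Smc3 allele was deleted, in Flt3-ITD mice the receptor Flt3 carried its internal tandem duplication, and control mice were Smc3 fl/+ without Mx1-Cre. The titles mark all 3 mutant genotypes as Mx positive, so these also differ from control in the recombinase. Each genotype had 2 libraries of 50000 cells, and marrow came from individual mice, though nothing states that replicates were separate animals. Any p-value for a contrast of genotypes therefore measures the spread between libraries, which may be technical. The sign-flip tests below compare 2 fixed sets of regions within each of the 6 libraries. Their p-values show only how evenly a difference recurs over libraries, and do not cover the sampling of regions. Titles and genotype labels were followed throughout, although the free-text descriptions give Smc3 del/+ libraries the alleles of Flt3-ITD ones and the reverse. That exchange leaves the 267 regions as they are, because all 6 libraries enter the rule alike, but it turns round every contrast between these single genotypes.

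Smc3 encodes a subunit of cohesin, the ring-shaped complex that holds sister chromatids together and, stalled at sites bound by CTCF, forms the bases of chromatin loops. Flt3-ITD is a constantly active form of the receptor tyrosine kinase Flt3, common in acute myeloid leukemia. In ATAC-seq a transposase inserts adapters into DNA that nucleosomes leave bare, so a peak marks an open site such as a promoter, an enhancer or a site held by CTCF. Peak positions are in build mm9. Since neither sequence nor annotation of that build was at hand, the genes, exons and motifs at these regions, the markers of c-Kit+ cells and the deleted Smc3 exons were not analysed here. Regions are given by coordinate, counted from 1.

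The lists differed in length, and those of the genotype without these peaks were the longest. The Smc3-deleted Flt3-ITD lists held 80698 and 80316 peaks, the Smc3 del/+ lists 61953 and 63401, the Flt3-ITD lists 67152 and 64218, and the control lists 74525 and 64777. With read depth unknown, it cannot be said how many reads lay behind an absent peak. The same pattern of calls was met at 240 further regions on X and Y. Autosomes held 109822 of the 114533 regions in all, and 267 of these autosomal regions had the pattern. The pattern was thus far more frequent among the remaining regions than on autosomes. The same count on X and Y is not given for the other genotypes. The sex of the mice is not in the labels, so whether the genotypes differed in sex was not tested. X and Y regions were left out of the results below.

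Setting each genotype in turn as the one without a peak puts the 0.738% in context. Of the autosomal regions with a peak in all 6 other libraries, 3.49% were absent from both Smc3 del/+ libraries (1398 of 40105), 1.24% from both Flt3-ITD libraries (464 of 37379) and 0.646% from both control libraries (238 of 36822). The order of these shares held only for lists as deposited. With every list kept to its 61953 highest-scored peaks, a setting added after the data were seen, the share was 1.58% for Smc3-deleted Flt3-ITD (552 of 34853), 2.30% for Smc3 del/+ (834 of 36197), 0.737% for Flt3-ITD (254 of 34482) and 0.849% for control (293 of 34494). In the full lists, 4975 of the 109822 autosomal regions had a peak in each library of the combined genotype and in no other. The lists of this genotype were the longest, and the same count is not given for the others. These sets share libraries, and the differences between their sizes were not tested.

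Near the edge of the rule, 761 autosomal regions had a peak in all 6 libraries and in exactly 1 Smc3-deleted Flt3-ITD library, 405 of them in replicate 1 and 356 in replicate 2. The lone Smc3-deleted Flt3-ITD peak of such a region had a median score percentile of 34.0 within its list, against 82.6 for the Smc3-deleted Flt3-ITD peaks of regions called in all 8 libraries. A further 518 regions had a peak in 5 of the 6 libraries and in neither of the combined genotype. The missing call was in Smc3 del/+ replicate 1 at 86 of them and replicate 2 at 101, in Flt3-ITD replicate 1 at 115 and replicate 2 at 128, and in control replicate 1 at 36 and replicate 2 at 52. Regions just outside the rule thus outnumbered those inside it on both sides.

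The peaks at the 267 regions ranked low in the libraries that had them. Each peak carries a score that the authors gave it, used here only for ranks within a list. Over the 267 regions the median percentile was 39.8 and 38.5 in the Smc3 del/+ libraries, 36.4 and 37.2 in the Flt3-ITD libraries, and 48.3 and 43.5 in the control libraries. At the 35155 autosomal regions called in all 8 libraries the medians were 67.4 and 68.0 in Smc3 del/+, 84.0 and 84.1 in Flt3-ITD, and 84.6 and 84.2 in control. In the Flt3-ITD and control libraries these last medians are the tied percentile of the top score of 1, so the size of the gap is set by the share of ties and only its direction can be read. The top score was held by 32 and 41 of the 267 regions in Smc3 del/+, 40 and 44 in Flt3-ITD, and 57 and 48 in control (21.3% at most), against 42.1% and 43.2% of the regions called in all 8 in Smc3 del/+, 54.6% and 51.8% in Flt3-ITD, and 57.8% and 51.5% in control. The median percentile at the 267 regions was lower in 6 of 6 libraries, by 38.1 points on average. An exact two-sided sign-flip permutation test over the 6 libraries gave p = 0.0312, the smallest it can give. After Benjamini-Hochberg adjustment over the 5 tests made it was 0.0781. With so few libraries none of the 5 tests could pass 0.05 after adjustment, whatever the values. Taken as a mean over those of the 6 libraries with a peak, the percentile had a median of 38.5 over the 267 regions. It was 38.8 over the 761 regions with 1 remaining Smc3-deleted Flt3-ITD call. Over the 518 regions called in 5 of the 6 it was 31.7, and over those called in all 8 it was 72.4. The sets differ by definition in how many libraries called them. The test therefore cannot tell a low rank of the 267 regions apart from their smaller number of calls.

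Widths told the 267 regions apart from the rest far less. Their median peak width was 456 and 452 bp in the Smc3 del/+ libraries, 400 and 426 bp in the Flt3-ITD libraries, and 424 and 402 bp in the control libraries. Regions called in all 8 had medians of 441 and 438 bp in Smc3 del/+, 427 and 429 bp in Flt3-ITD, and 410 and 411 bp in control. The mean difference over the 6 libraries was 0.667 bp (exact two-sided sign-flip p = 0.906, adjusted 0.906), positive in 3 libraries and negative in 3, and its sign changed when single libraries were left out. The spread among regions was much larger than any difference between libraries. In control replicate 1, for instance, the peaks at the 267 regions ran from 102 to 1872 bp.

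**Figure D1:**
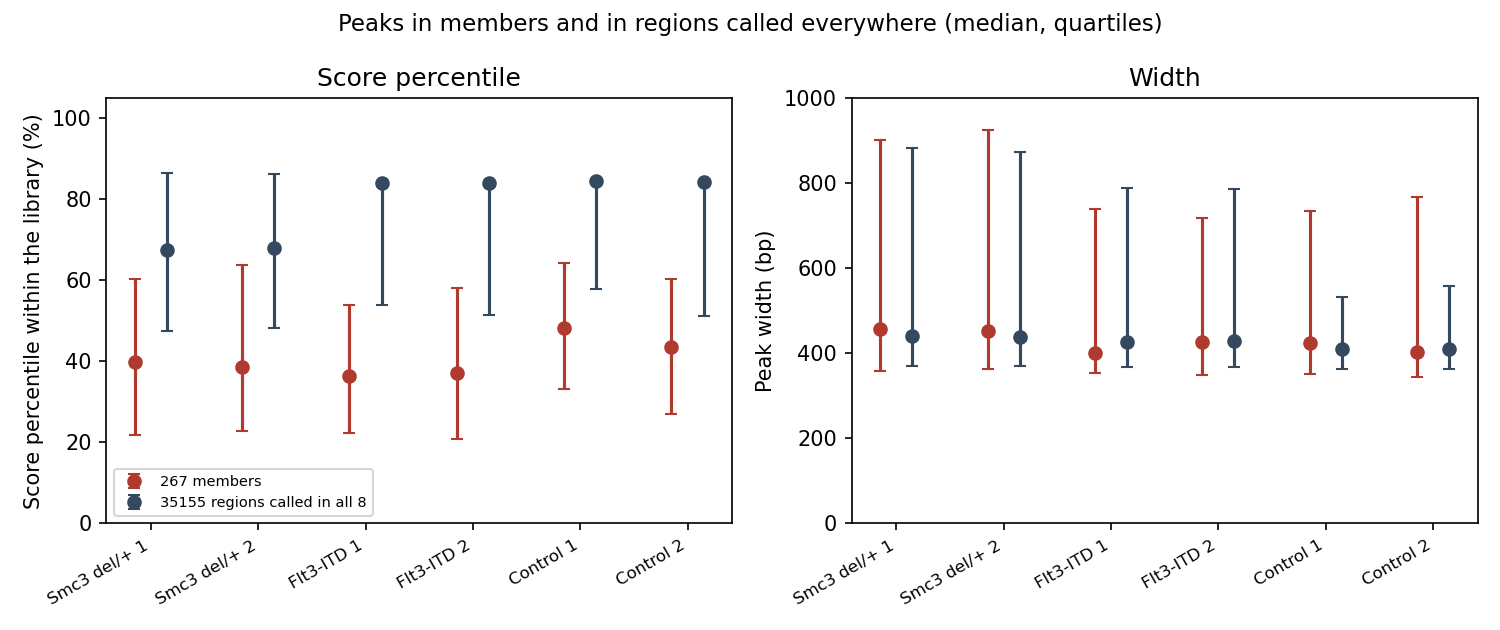
Median (point) and quartiles (bars) of the score percentile within the library (left, %) and of peak width (right, bp) in each of the 6 libraries with peaks at the 267 regions (red), beside regions called in all 8 libraries (blue). Red medians lie between 36.4 and 48.3 percentile points and blue medians between 67.4 and 84.6, while the widths of both sets overlap.

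Among the 6 libraries, peaks at these regions were widest in Smc3 del/+. The per-library medians averaged 454 ± 2.83 bp in Smc3 del/+, 413 ± 18.4 bp in Flt3-ITD and 413 ± 15.6 bp in control (SD, n = 2 each), and both Smc3 del/+ values lay above the other 4. The difference of 41.0 bp between Smc3 del/+ and the other genotypes had an exact two-sided permutation p of 0.0667, the smallest that 2 libraries against 4 allow, and 0.111 after adjustment. With the regions found without Smc3-deleted Flt3-ITD replicate 1 it was 22.0 bp, without its replicate 2 it was 18.0 bp, and without Smc3 del/+ replicate 2 it was 26.2 bp. Flt3-ITD differed from Smc3 del/+ and control by -20.5 bp (exact permutation p = 0.4, adjusted 0.5). All autosomal peaks were also widest in Smc3 del/+, with medians of 434 and 432 bp, beside 422 and 424 bp in Flt3-ITD and 409 and 408 bp in control. Divided by these medians, the widths at the 267 regions were 0.0549 higher in Smc3 del/+ than in the other genotypes (exact permutation p = 0.133), and Smc3 del/+ remained highest in both libraries.

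Widths were also compared region by region. Both Smc3 del/+ peaks were wider than both control peaks at 65 of the 267 regions (24.3%) and narrower at 36 (13.5%). Among all 36183 autosomal regions with a peak in the 6 libraries, 24.2% were wider and 11.7% narrower. Both Flt3-ITD peaks were wider than both control peaks at 44 of the 267 (16.5%) and narrower at 39 (14.6%), beside 21.8% wider and 13.0% narrower among all 36183. Against Smc3 del/+, both Flt3-ITD peaks were wider at 39 of the 267 and narrower at 60, beside 15.2% and 18.9% among all. The differences between these shares and those among all regions were not tested.

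Not every region was a single open site. At 147 of the 267 (55.1%, exact 95% interval 48.9 to 61.1%, counting error only) at least 1 base lay under a peak of all 6 libraries, and the shared stretch had a median of 218 bp. At the other 120 no base was covered in all 6, so the region was a chain of overlapping peaks that sat at slightly different places in different libraries. This was also common elsewhere, since 62.7% of the 35155 regions called in all 8 had a base shared by the 6 libraries. The longest shared stretch, 799 bp, lay at chr12:58295203-58296566, a region singled out after its values were seen. Its peaks were 872 and 1059 bp wide in Smc3 del/+, 967 and 1216 bp in Flt3-ITD, and 991 and 873 bp in control, so the genotypes overlapped there. The nearest Smc3-deleted Flt3-ITD peak stood 8900 bp away.

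The regions differed widely in their distance to the nearest peak in the Smc3-deleted Flt3-ITD lists. The rule fixes only that no such peak overlaps the region. The median was 2993 bp and the range ran from 3 to 1801295 bp. A peak of the combined genotype stood within 1 kb of 83 regions (31.1%, exact 95% interval 25.6 to 37.0%), for 62 of them in both of its libraries. At 62 regions the nearest one was 1 to 5 kb away, at 63 it was 5 to 50 kb away, and at 59 (22.1%, interval 17.3 to 27.6%) it was over 50 kb away. Of the 83 near neighbours, 42 lay in a region that all 6 other libraries also called, 25 in one called by 1 to 5 of them, and 16 in one called by none of them.

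The same distance was taken for the other sets, each from the genotype without a call. Only 4.58% of the regions absent from Smc3 del/+ lay over 50 kb from the nearest Smc3 del/+ peak (interval 3.54 to 5.81%). The share was 6.68% for the regions absent from Flt3-ITD (4.58 to 9.35%). Of those absent from control, 89.1% lay within 50 kb of a control peak (84.4 to 92.7%). The share within 50 kb was 95.4% for Smc3 del/+, 93.3% for Flt3-ITD and 77.9% for the 267 regions. With lists as deposited, absence from Smc3-deleted Flt3-ITD thus came with the largest share of far regions among the 4 sets. Of its 59 far regions, 8 lay in a single stretch on chromosome 3. Its share with the nearest peak within 100 bp, 7.87% (4.93 to 11.8%), was also the largest. That of the regions absent from control was 5.46% (2.94 to 9.16%), so these intervals overlap. All these intervals cover counting error only, take regions as independent, and do not measure the spread between libraries of a genotype. Distances of this kind also depend on the length of a list, and the lists of the combined genotype were the longest. The shares were not taken again with lists of equal length, and their differences were not tested.

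**Figure D2:**
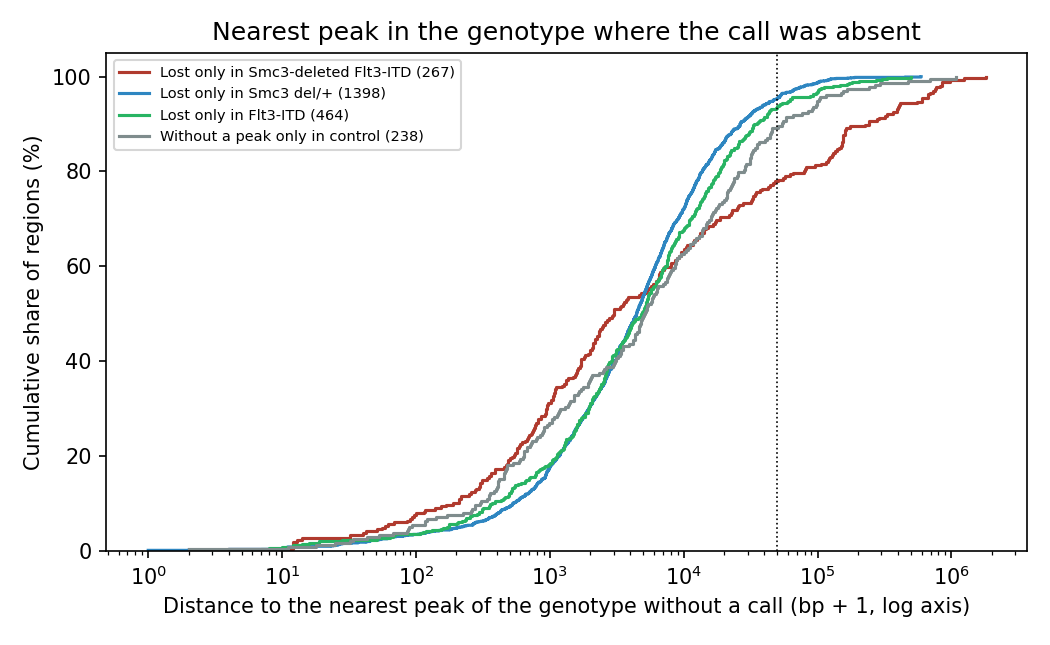
Cumulative share of regions (%) against the distance from each region to the nearest peak of the genotype that lacked a call there (bp + 1, log axis), for the 4 sets in which exactly 1 genotype lacked a peak; the dotted line marks 50 kb. The red line of the 267 regions lies above the others at 100 bp, 500 bp and 1 kb and below them at 50 kb, with 77.9% of its regions within 50 kb.

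A larger share of the 267 regions than of regions called in all 8 stood far from any other peak in the libraries that had them. This holds for the far tail and not for the middle: the median distance to the nearest other control peak was 2120 bp for the 267 regions, 93 of which had one within 1 kb, against 2804 bp for the regions called in all 8. In each of the 6 libraries, the share of the 267 regions that lay over 50 kb from any other peak of that library was 18.7% and 17.2% in Smc3 del/+, 18.0% and 17.2% in Flt3-ITD, and 16.5% and 15.7% in control. At the regions called in all 8 it was 3.97% and 3.74% in Smc3 del/+, 3.37% and 3.82% in Flt3-ITD, and 3.08% and 3.99% in control. The share over 50 kb was larger for the 267 regions in 6 of 6 libraries, with a mean of 17.2% ± 1.06 against 3.66% ± 0.365 (SD, n = 6). The difference of 13.6 percentage points had an exact two-sided sign-flip permutation p of 0.0312, the smallest possible, and 0.0781 after adjustment over the 5 tests. It was 6.32 points without Smc3-deleted Flt3-ITD replicate 1, 5.78 without its replicate 2, 6.55 with lists of equal length and 6.01 with the upper 50% of each list. This measure was added after the distances had been seen. The 2 sets differ by definition in whether the combined genotype had peaks there, and the same regions enter in every library. The test therefore cannot tell isolation of the 267 regions apart from the way the sets were chosen.

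**Figure D3:**
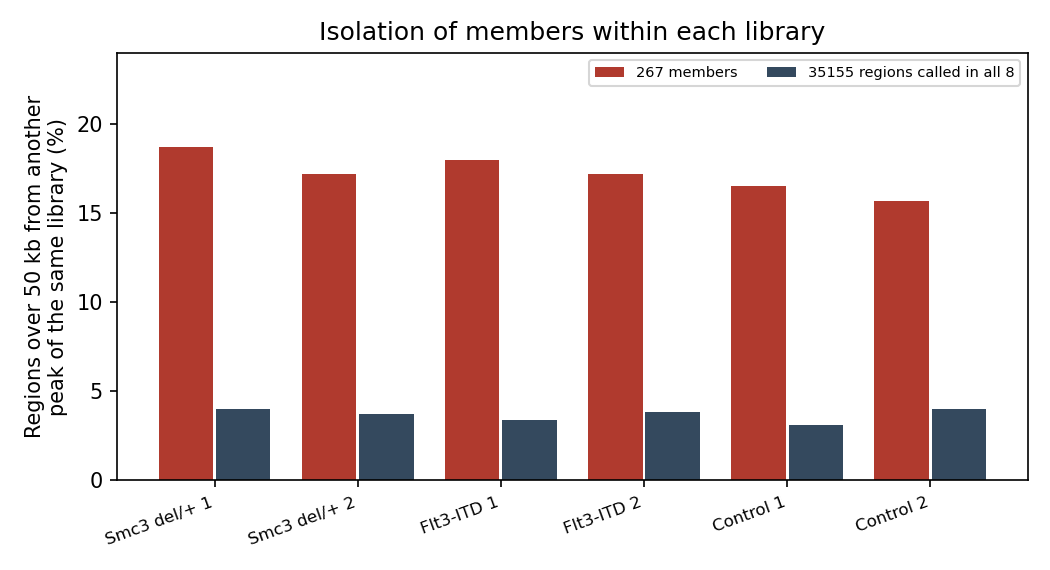
Share of regions (%) that lay over 50 kb from any other peak of the same library, for the 267 regions (red bars) and the regions called in all 8 libraries (blue bars), in each of the 6 libraries with peaks at both sets. Red bars run from 15.7 to 18.7% and blue bars from 3.08 to 3.99%, and the gap is smaller under the other settings given above, down to 5.78 points.

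Of the 59 far regions, 30 were also over 50 kb from any other peak of the pooled control lists. The 59 fell into 47 stretches without a Smc3-deleted Flt3-ITD peak, with a median length of 848700 bp and a range from 174091 to 5560291 bp. Besides the 59, these stretches held 104 regions called in fewer of the 6 libraries, and 8 stretches held none. The longest lay at chr1:114348939-119909229 and held 10 regions, of which 1 was called in all 6 libraries.

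Among the 5 regions farthest from any Smc3-deleted Flt3-ITD peak, that at chr3:45483423-45484128 was 1801295 bp away. Its peaks were narrow, 125 and 235 bp wide in Smc3 del/+, 454 and 358 bp in Flt3-ITD, and 181 and 383 bp in control. The others were chr5:83605795-83606961 at 1238919 bp, chr5:78907838-78908709 at 977898 bp, chr5:78781506-78781929 at 851566 bp and chr1:49783570-49784380 at 844634 bp. Chromosome 5 thus held 3 of the 5. The regions at 78781506 and 78907838 lay in the same stretch of 2465597 bp with chr5:80239398-80240723, one of the highest-scored of all. In that stretch the Smc3 del/+ libraries called 3 and 4 regions, the Flt3-ITD libraries 5 and 5, and the control libraries 3 and 4.

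A tract on chromosome 3 stood out by position. Joining regions with gaps of at most 50 kb left 247 of the 267 alone, gave 6 pairs and gathered 8 regions at chr3:25416099-25455120, a span of 39022 bp. Counting each repeated interval once, the Smc3-deleted Flt3-ITD lists had 0 and 0 peaks inside it, the Smc3 del/+ lists 15 and 13, the Flt3-ITD lists 30 and 22, and the control lists 24 and 25. The nearest peaks of the combined genotype were 356169 bp to the left and 118801 bp to the right. The whole stretch between them, 513992 bp, held 22 regions, of which the Smc3 del/+ libraries called 14 and 11, the Flt3-ITD libraries 16 and 15, and the control libraries 15 and 16. In the 6 libraries, peaks were dense across the tract and rare on either side of it.

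Peaks in the tract were of low rank and shifted between libraries. The 8 regions were between 1218 and 4293 bp wide, their mean score percentile ran from 14.8 to 36.4, and none had the top score of 1 in any library. In 5 of the 8, no base was shared by all 6 libraries. The widest, chr3:25441817-25446109, had peaks of at most 305 and 277 bp in Smc3 del/+, 1012 and 592 bp in Flt3-ITD, and 952 and 705 bp in control. At chr3:25450789-25453001, where 254 bp were shared, the widths were 1026 and 1235 bp in Smc3 del/+, 997 and 707 bp in Flt3-ITD, and 923 and 1385 bp in control, so the genotypes overlapped.

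**Figure D4:**
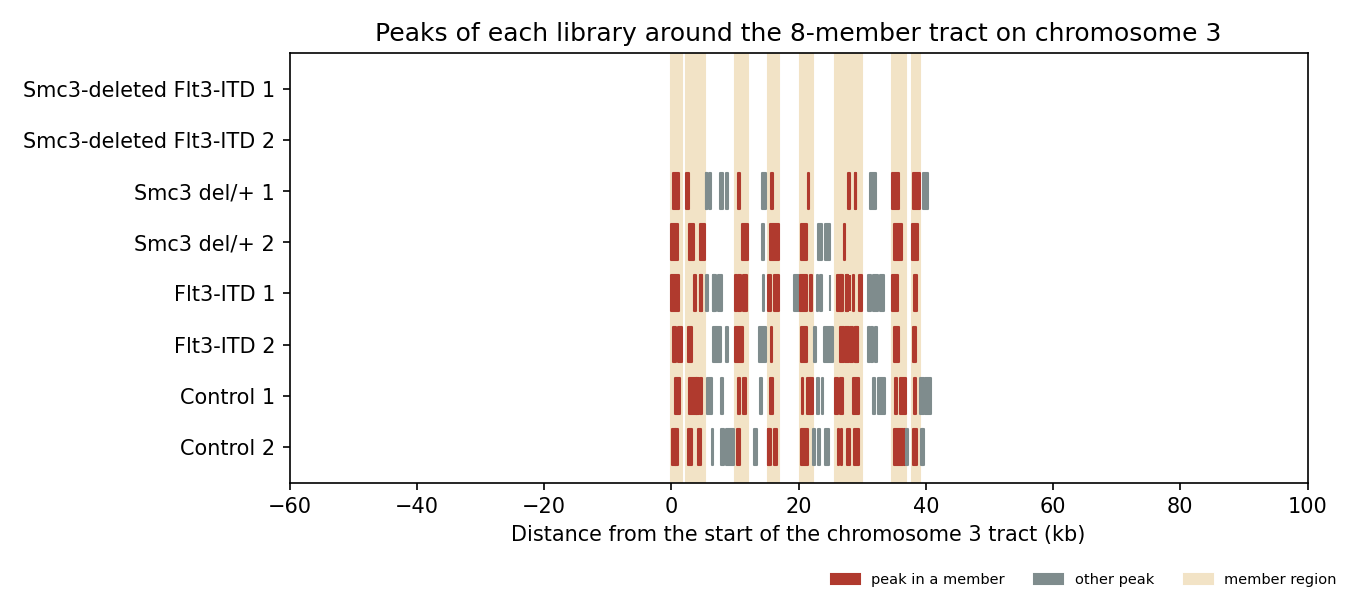
Peaks of the 8 libraries (rows) by distance from the start of the chromosome 3 tract (kb), with the 8 regions shaded, their peaks in red and other peaks in grey. Both Smc3-deleted Flt3-ITD rows are empty, and the other 6 hold 13 to 30 distinct peaks inside the tract.

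By chromosome, the 267 regions made up between 0.489% (chromosome 17, 8 regions) and 1.61% (chromosome 3, 31 regions, exact 95% interval 1.10 to 2.28%) of the regions with a peak in all 6 other libraries. Chromosome 9 followed with 22 regions (1.12%, interval 0.704 to 1.69%). Without the 8 regions of the tract, chromosome 3 had 23 (1.19%). Every autosome held at least 6, and only the interval of chromosome 3 lay wholly above 0.738%, the share over all autosomes. The differences between chromosomes were not tested.

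**Figure D5:**
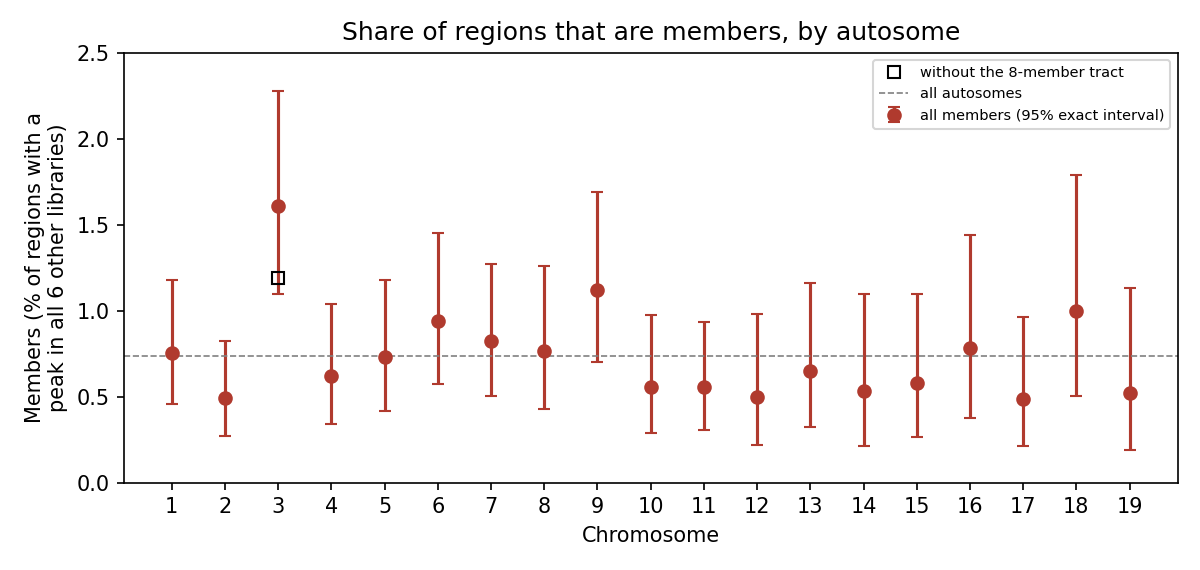
Share of regions with a peak in all 6 other libraries that belong to the 267 (%), for each autosome, with exact 95% intervals as bars and the share over all autosomes as a dashed line. Chromosome 3 is highest at 1.61%, or 1.19% without its tract of 8 regions (open square).

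Of the 6 pairs, 3 lay far from any peak of the combined genotype. The pair at chr16:59243252-59248972 sat in a stretch of 581841 bp in which each of the 6 libraries called these 2 regions and no library called another. Its larger region, chr16:59246252-59248972, had peaks of 1627 and 857 bp in Smc3 del/+, 1565 and 1867 bp in Flt3-ITD, and 982 and 1734 bp in control, 728 bp of which were shared by all 6. The genotypes overlapped there. The pair at chr7:27644666-27647301 was alike, alone in a stretch of 208715 bp. The pair at chr6:60006179-60011032 shared a stretch of 787179 bp with 1 other region. The remaining pairs, on chromosomes 1, 6 and 14, had a peak of the combined genotype within 1 kb of at least 1 of their regions.

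Most of the 267 regions lacked the top score in every library. At 18 of the 267 regions the peak had the top score of 1 in all 6 libraries, at 53 in 1 to 5 of them and at 196 in none. These counts are not given for other regions, for which only the shares per library stand above, so they do not set the 267 regions apart. The mean percentile of a region ran from 13.3 to 84.9. Of the 18, 14 had a peak of the combined genotype within 1 kb. The 83 regions with such a near neighbour had a median percentile of 43.5, the 125 regions at 1 to 50 kb one of 36.9 and the 59 beyond 50 kb one of 38.8.

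The 12 highest-ranked regions, all with the top score in 6 of 6 libraries, show both kinds. The first, chr10:92605502-92607240, had peaks of 1041 and 1305 bp in Smc3 del/+, 316 and 911 bp in Flt3-ITD, and 725 and 1327 bp in control, and the nearest peaks of the combined genotype were 816 and 824 bp away. At chr1:145846118-145847440, the second, the peaks were 1131 and 1013 bp wide in Smc3 del/+, 1132 and 1136 bp in Flt3-ITD, and 399 and 410 bp in control. There all 4 mutant libraries with a peak lay above both control libraries, and the peaks of the combined genotype were 987 and 938 bp away. Of these 12, 9 had a Smc3-deleted Flt3-ITD peak within 1 kb.

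The other 3 of the 12 had none nearby. At chr15:12891091-12892208 the peaks were 916 and 1059 bp wide in Smc3 del/+, 970 and 565 bp in Flt3-ITD, and 746 and 419 bp in control, and the Smc3-deleted Flt3-ITD libraries had their nearest peaks at 95114 and 95133 bp. Smc3 del/+ was above control in both libraries there, while Flt3-ITD overlapped control. At chr5:80239398-80240723 the widths were 356 and 481 bp in Smc3 del/+, 372 and 429 bp in Flt3-ITD, and 1012 and 1172 bp in control, with no base common to all 6, and the nearest Smc3-deleted Flt3-ITD peaks were 154813 and 154850 bp away. Both control peaks exceeded every mutant peak at that region. At chr2:179349516-179350113 the widths were 122 and 486 bp in Smc3 del/+, 560 and 524 bp in Flt3-ITD, and 551 and 576 bp in control, and the nearest peaks of the combined genotype were 33785 and 33083 bp away.

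Close neighbours were sometimes only a few bases off. At chr4:135050644-135051084 the peaks were alike in all 6 libraries, 373 and 386 bp in Smc3 del/+, 433 and 396 bp in Flt3-ITD, and 393 and 404 bp in control, with 352 bp in common. The Smc3-deleted Flt3-ITD libraries had peaks 58 and 68 bp from its edge. At chr9:107547166-107547619 they were 19 and 3 bp away, the shortest distance of all 267. This region was named for its distance after the values were seen. With peaks of the combined genotype barred within 500 bp as well, 216 of the 267 regions were left.

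The widest of the 267, chr8:38447923-38453525, was also singled out afterwards. It spanned 5603 bp, and its widest peaks were 1069 and 1225 bp in Smc3 del/+, 1266 and 1193 bp in Flt3-ITD, and 1618 and 402 bp in control. Its peaks had the top score in 5 of the 6 libraries. The nearest Smc3-deleted Flt3-ITD peaks were 320806 and 320282 bp away, and the nearest other control peak was 321954 bp away, so it stood alone in the control lists as well.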

How the data were processed

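ATAC-seq libraries of c-Kit+ marrow cells were deposited as 1 peak list each. Per the submitters' processing notes, Bowtie and build mm9 were used. For the peak caller, the transposase offset and duplicate or multi-mapping reads, nothing is stated in the labels. The score that the authors deposited for each peak lies between 0.99 and 1, with 27.2% to 34.9% of a list at exactly 1, and what it measures is not stated. The deposited start and end positions gave widths and distances. No reads or counts were used. Precision is limited by 2 libraries per genotype.

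All 557040 peaks were merged at 1 bp of overlap, which joined 1550 repeated intervals. Within a region, a library's value was its widest peak and its highest score percentile. Library medians were compared by exact permutation tests, with Benjamini-Hochberg adjustment over 5 tests. Replicate numbers say nothing of shared animals. Named regions were the 12 with the highest mean percentile (ties by width), the members of tracts of 3 or more and the 5 farthest from a Smc3-deleted Flt3-ITD peak. The regions and rules were chosen with earlier results of these data known. Merging and the width test between genotypes were checked on simulated, evenly spaced peaks without chained overlaps or tied scores. The sign-flip test was checked on a constant difference only, and the isolation measure was not checked. Alternatives covered scores, list length, overlap, merging, exchanged labels and left-out libraries. Tests ran in scipy 1.17.1 and numpy 2.4.6, tables in pandas 2.3.3 and plots in matplotlib 3.10.9, under Python 3.11.15.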

Additional observations from a re-analysis of the deposited data

How the results depend on the processing

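The number of regions depended on which peaks entered. It was 267 with all peaks, 150 when each list kept its upper 50% by score, 552 when every list kept 61953 peaks and 694 when the bases shared by all 6 libraries served as regions. The upper 50% kept 45 of the 267 and equal numbers kept 214. With shared bases, the 120 regions of the 267 that have none drop out, and 547 of the 694 lay outside the 267, where a Smc3-deleted Flt3-ITD peak elsewhere in the merged region no longer counts. Leaving out 1 library loosens the rule and gave 307 to 692, with 692 without Smc3-deleted Flt3-ITD replicate 1 and 645 without replicate 2. No peak allowed within 500 bp left 216, and exchanging the Smc3 del/+ and Flt3-ITD libraries left 267.

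No test passed after adjustment under any setting, and with so few libraries none could have. The width difference of Smc3 del/+ stayed positive in all settings with the labels as titled (18.0 to 52.7 bp over left-out libraries) and became -20.5 bp with the labels exchanged. That of Flt3-ITD became 41.0 bp with them exchanged and ran from -28.2 to 5.83 bp over left-out libraries, positive only without Smc3 del/+ replicate 2. Permuting within the replicate block gave exact p = 0.111 for Smc3 del/+, the smallest the block allows, and 0.556 for Flt3-ITD. The width difference from regions called in all 8 became -1.83 bp with the upper 50% and ran from -8.83 to 8.5 bp over left-out libraries, and the cause was not tested. The percentile difference stayed between -43.1 and -34.6 points. The isolation difference, 13.6 points, was 6.01 with the upper 50%, 6.55 with equal numbers, and 5.78 and 6.32 without Smc3-deleted Flt3-ITD replicate 2 and 1. It was 13.5 with a limit of 20 kb, 11.97 with 100 kb and 14.1 without the chromosome 3 tract.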
